A study of Mus musculus with 8 samples.

Results

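The core circadian clock was described by 10 genes in 8 mouse prostate tumours: Arntl, Clock, Per1, Per2, Per3, Cry1, Cry2, Nr1d1, Nr1d2 and Dbp. They were taken by symbol from the 24028 genes of the deposited tables, and all 10 passed the filter on low counts. The tumours grew from TRAMP-C2 cells, an established prostate adenocarcinoma line derived from a TRAMP mouse, whose transgene is driven in prostate epithelium by the probasin promoter, after the cells had been placed in the dorsolateral prostate of male C57BL/6 hosts. In the aged group the hosts were 20 to 24 months old (19 injected, 4 tumours sequenced), and in the young group they were 4 months old (20 injected, 4 tumours sequenced). Strain, sex, cell line and injection were shared by all tumours, and the labels name no altered allele in the hosts. Tumours were taken 30 to 45 days after injection. The sources used here do not give the hour of the day or the exact day on which each tumour was taken. Each tumour is named by its host group and the number after R in its label, read here as the mouse number. On that reading, p-values measure the spread between tumours of separate animals.

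The mammalian clock is a loop of transcription and translation that runs in nearly every cell. The proteins of Arntl (BMAL1) and Clock pair up and bind E-box sequences, which switches on the Per and Cry genes, the REV-ERB genes Nr1d1 and Nr1d2, and Dbp. PER and CRY proteins then enter the nucleus and restrain that pair, and REV-ERB proteins repress Arntl. In rhythmic tissue such as mouse liver, Arntl transcripts therefore peak at a time of day when Dbp and Nr1d1 transcripts are low. Dbp, with its relatives Tef and Hlf, binds D-box sequences and drives clock output, including genes of the Per family.

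The libraries held 27054498 (young 37) to 35729488 (young 43) counted fragments. As markers of epithelium, 6 genes were read (Krt8, Krt18, Krt19, Epcam, Cdh1 and Cldn4), and all were counted in every tumour. Epithelium of the host prostate can carry these transcripts too, so the counts cannot check the labelled origin of the tumour cells. The summed level of the 6 markers was 139.5 to 652.6 FPM in aged tumours and 63.3 to 445.9 FPM in young tumours. FPM are fragments scaled to the total counted, equal to CPM. Young 43 was lowest, with Epcam, an epithelial adhesion molecule, at 0.700 FPM and Krt18 at 3.81 FPM. Seminal vesicle transcripts set aged 50 and young 36 apart, with 8 such genes summing to 22952.3 and 38196.7 FPM, against at most 18.9 FPM in the other 6 tumours. Of 6 prostate secretory and luminal genes the sum was highest in young 37 (11120.4 FPM, of which Sbp gave 7523.2 and Spink1 3579.7 FPM), followed by aged 50 (4844.5 FPM) and young 36 (1251.5 FPM), and was at most 198.0 FPM in the other 5 tumours. Aged 46 had the lowest summed fibroblast (7652.9 FPM), smooth muscle (171.3 FPM), endothelial (193.9 FPM) and macrophage markers (1507.2 FPM) of the 8 tumours. Aged 51 was highest in the skeletal muscle genes Acta1 (50.76 FPM), Tnnt3 (18.53 FPM), Ckm (11.38 FPM) and Mylpf (11.35 FPM). Des, on the same list, was highest in aged 50 (136.9 FPM). Tumours were measured in bulk, so fewer cells of a type and less RNA per cell cannot be told apart.

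Promoter windows were read for the clock genes because E-box and D-box sequences are what ties them into 1 loop. RefSeq (GRCm38.p6) gave 13 start sites for 9 of the 10 genes, all but Per2, and the 250 bases before each start were searched on both strands. The motifs were the E-box CACGTG, its variant CACGTT, the D-box forms TTATGTAA, TTACGTAA and TTATGCAA, and the ROR element, the site of ROR and REV-ERB receptors, and no match overlapped another. The windows of 5 genes held a match, and these are shown 5′ to 3′ on the gene's strand, with the matched bases in capitals (AACGTG is CACGTT on the other strand). They lie at chr11:69098699-69098948 (Per1, plus strand, the first of its 2 start sites), chr4:151044666-151044915 (Per3, minus strand), chr10:85185055-85185304 (Cry1, minus strand), chr2:92434070-92434319 (Cry2, minus strand) and chr11:98775378-98775627 (Nr1d1, minus strand).
Per1: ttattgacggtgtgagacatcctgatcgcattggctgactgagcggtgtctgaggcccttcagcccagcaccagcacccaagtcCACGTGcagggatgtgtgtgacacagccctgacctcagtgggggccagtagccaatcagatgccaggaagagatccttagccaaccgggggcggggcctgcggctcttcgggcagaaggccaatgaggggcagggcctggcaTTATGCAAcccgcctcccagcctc
Per3: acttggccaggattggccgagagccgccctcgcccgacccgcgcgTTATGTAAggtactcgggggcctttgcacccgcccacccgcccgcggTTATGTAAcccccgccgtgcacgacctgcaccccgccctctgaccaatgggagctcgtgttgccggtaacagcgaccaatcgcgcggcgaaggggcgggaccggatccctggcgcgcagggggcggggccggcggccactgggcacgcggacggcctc
Cry1: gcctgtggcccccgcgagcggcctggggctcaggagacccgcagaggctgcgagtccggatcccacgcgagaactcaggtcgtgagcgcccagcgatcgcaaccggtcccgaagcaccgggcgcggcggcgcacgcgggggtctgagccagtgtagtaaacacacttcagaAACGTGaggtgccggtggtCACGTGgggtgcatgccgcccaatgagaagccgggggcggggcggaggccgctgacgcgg
Cry2: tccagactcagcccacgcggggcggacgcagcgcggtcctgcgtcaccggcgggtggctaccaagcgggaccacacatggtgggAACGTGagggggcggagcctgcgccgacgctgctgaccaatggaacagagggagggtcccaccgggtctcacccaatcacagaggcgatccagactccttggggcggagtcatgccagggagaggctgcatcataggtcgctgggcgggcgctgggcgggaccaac
Nr1d1: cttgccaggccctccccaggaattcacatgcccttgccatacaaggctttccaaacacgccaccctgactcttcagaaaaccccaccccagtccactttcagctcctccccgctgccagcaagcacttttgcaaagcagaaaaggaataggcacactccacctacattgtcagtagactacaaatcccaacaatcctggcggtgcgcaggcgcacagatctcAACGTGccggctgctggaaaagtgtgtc
Per1 held CACGTG with its first base 166 bases before the start and TTATGCAA 24 bases before it. Per3 held TTATGTAA at 205 and at 158 bases, and Cry1 held CACGTG at 60 bases and the variant at 79 bases. Cry2 and Nr1d1 held the variant, at 166 and at 28 bases. Among all 32851 promoter windows of this length, 6.02% held CACGTG, 3.85% the variant, 0.819% TTATGTAA, 0.694% TTATGCAA, 0.113% TTACGTAA and 0.332% the ROR element. A match is a description of these letters. The windows of Arntl (chromosome 7, plus strand), Clock, Nr1d2 and Dbp held none, and sites farther from the start were not searched.

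Per length, Per1 was the most abundant of the 10 and Per3 the least. These levels are the deposited FPKM, which divide FPM by transcript length. Per1 averaged 16.1 ± 8.14 FPKM in aged tumours and 8.57 ± 2.44 FPKM in young tumours (SD, n = 4 each, as throughout this paragraph). In aged tumours Nr1d1 averaged 8.85 ± 2.08, Cry1 8.27 ± 2.06 and Nr1d2 8.54 ± 1.72 FPKM, and in young tumours these had 6.81 ± 1.26 (Nr1d1), 6.73 ± 0.0711 (Cry1) and 6.39 ± 0.791 FPKM (Nr1d2). Arntl followed with 6.35 ± 1.49 FPKM in aged and 5.64 ± 1.04 FPKM in young tumours, and Clock with 4.93 ± 0.884 FPKM in aged and 3.88 ± 0.586 FPKM in young tumours. Dbp stood at 3.68 ± 3.01 FPKM in aged and 2.32 ± 0.882 FPKM in young tumours, and Cry2 at 3.52 ± 1.23 FPKM in aged and 2.36 ± 0.152 FPKM in young tumours. Per2 (1.48 ± 0.443 FPKM in aged, 1.12 ± 0.216 FPKM in young tumours) and Per3 (1.202 ± 0.414 FPKM in aged, 0.988 ± 0.0520 FPKM in young tumours) closed the order. Every gene overlapped its neighbour in this order over the 8 tumours, except that the lowest Cry2 value lay above the highest Per2 value.

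**Figure D1:**
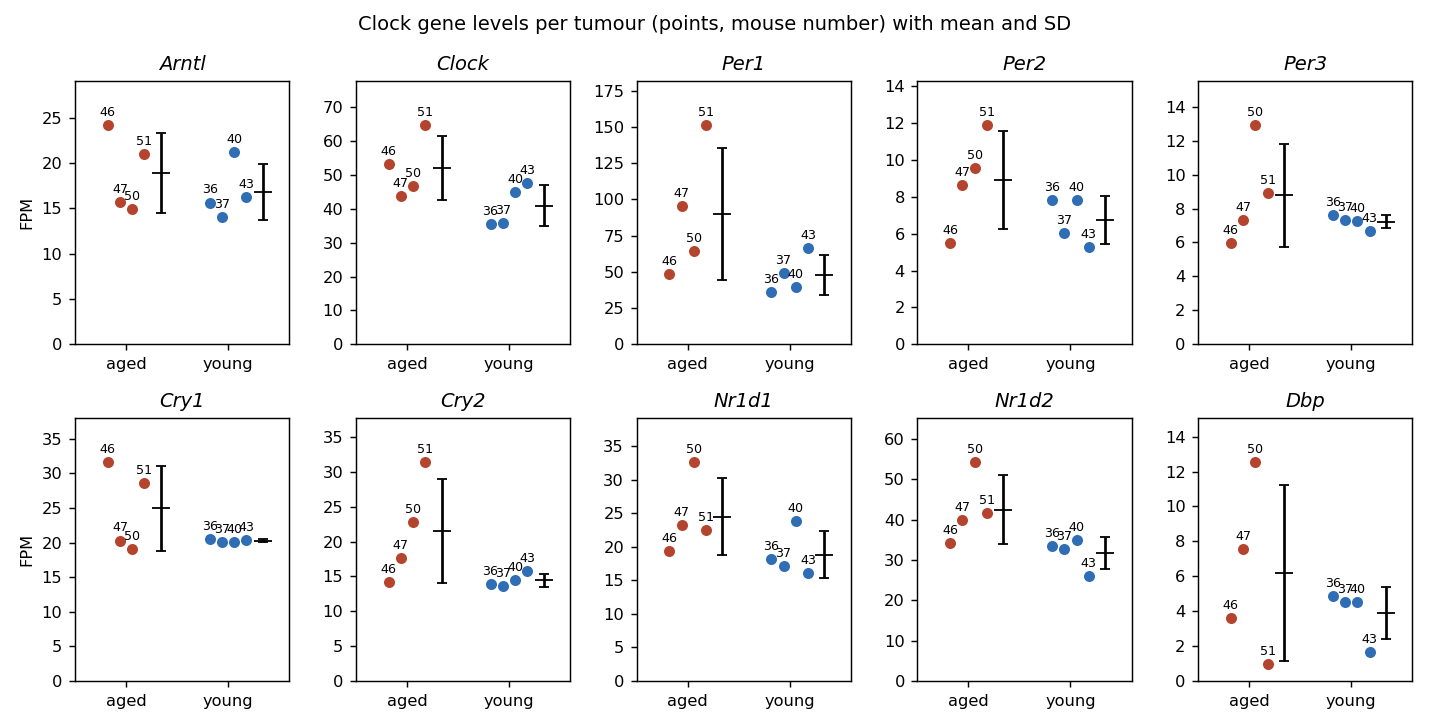
Deposited FPM (linear axis from 0) of the 10 clock genes in each tumour, aged hosts on the left and young hosts on the right of each panel, with mouse numbers beside the points and the mean and SD of each group as a bar. Cry1 in young tumours lies within 20.1 to 20.5 FPM, whereas in aged tumours it reaches 31.7 FPM, and Dbp spans 0.960 to 12.6 FPM.

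Host age was the comparison the series was built for: the same tumour line in aged and in young prostate. All 10 clock genes had a positive log2 fold change (aged minus young), with a median of 0.40, where 55.3% of the 14575 tested genes had a positive one and their median was 0.03. None of the 10 passed edgeR's quasi-likelihood test after Benjamini-Hochberg adjustment over all tested genes (adjusted p = 0.923 for each of the 10), and 0.0% of all tested genes did. At an unadjusted p of 0.05 edgeR gave 3 of the 10 (Per1, Cry2 and Nr1d2), all higher in aged tumours, where 2.34% of tested genes were higher and 4.99% passed in either direction. DESeq2 gave adjusted p-values of at least 0.440 for the 10 and called 0.295% of tested genes, and limma voom gave at least 0.137 and called 0.0617%, so neither called a clock gene. By edgeR, leaving out aged 46 gave 5 clock genes at an unadjusted p under 0.05, and leaving out aged 51, young 36 or young 37 gave 1. The 10 genes together summed to 239.9 to 383.1 FPM in aged tumours and to 193.7 to 222.1 FPM in young tumours, and Per1 alone gave 48.2 to 151 FPM of the sum in aged tumours and 36.1 to 66.4 FPM in young tumours.

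In the activating limb, Arntl had 24.2, 15.6, 14.9 and 20.9 FPM in aged 46, 47, 50 and 51, against 15.6, 14.1, 21.2 and 16.3 FPM in young 36, 37, 40 and 43. Aged 46, young 40 and aged 51 were the high tumours, and the groups overlapped widely. Its log2 fold change was 0.20 ± 0.22 (SE), and 0.03 without aged 46. Exons of Arntl share 33 of 7523 bases with Gm45355, a gene on the opposite strand for which no level was read. Clock, the partner of Arntl and a histone acetyltransferase, had 53.1, 43.8, 46.7 and 64.8 FPM in the aged tumours, against 35.5, 35.9, 45.05 and 47.6 FPM in the young tumours. Here and for the genes that follow, mice are listed in the order given for Arntl. Only aged 46 and aged 51 lay above every young tumour. The log2 fold change of Clock was 0.37 ± 0.17 (SE), and 0.22 without aged 51.

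Among the repressors, Per1, a period protein whose gene also answers glucocorticoids and cAMP directly, had 48.2, 95.1, 64.6 and 151 FPM in aged 46, 47, 50 and 51, against 36.1, 49.3, 39.4 and 66.4 FPM in young 36, 37, 40 and 43. Aged 51 stood far above the rest, and aged 46 lay within the young range. The log2 fold change was 0.93 ± 0.35 (SE), the largest of the 10, and 0.52 without aged 51. Per2, a further period protein, had 5.48, 8.66, 9.57 and 11.9 FPM in the aged tumours, against 7.83, 6.06, 7.83 and 5.26 FPM in the young tumours. Aged 46 and young 43 were its low tumours, and its log2 fold change was 0.41 ± 0.27 (SE), and 0.20 without aged 51. Per3, a period protein that mice can lack with little loss of rhythm, had 5.95, 7.31, 12.9 and 8.93 FPM in the aged tumours, against 7.59, 7.32, 7.28 and 6.69 FPM in the young tumours. Aged 50 was high, aged 46 was the lowest of all 8, and the log2 fold change of 0.28 ± 0.24 (SE) was 0.07 without aged 50.

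The cryptochromes are the strong repressors of the loop. Cry1 had 31.7, 20.3, 19.1 and 28.7 FPM in aged 46, 47, 50 and 51, against 20.5, 20.1, 20.1 and 20.4 FPM in young 36, 37, 40 and 43. Aged 46 and aged 51 stood above all others, while aged 47 and aged 50 were at or below the young level. The log2 fold change was 0.32 ± 0.20 (SE), and 0.16 without aged 46. Cry2 had 14.2, 17.6, 22.8 and 31.5 FPM in the aged tumours, against 14.0, 13.6, 14.5 and 15.8 FPM in the young tumours. Aged 46 lay inside the young range and the other 3 aged tumours above it, with a log2 fold change of 0.59 ± 0.24 (SE), and 0.31 without aged 51. The exons of Cry2 share 295 bases with an antisense gene, D930015M05Rik, which had at most 0.165 FPM.

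Of the REV-ERB receptors, which repress Arntl and bind haem, Nr1d2 (REV-ERB beta) had 34.1, 39.9, 54.4 and 41.6 FPM in aged 46, 47, 50 and 51, against 33.5, 32.6, 34.9 and 26.1 FPM in young 36, 37, 40 and 43. Aged 50 was highest and young 43 lowest. On the log2 CPM scale with TMM factors all 4 aged tumours lay above all 4 young tumours (5.17 in aged 46, 5.13 in young 36), but in the deposited FPM aged 46 lay below young 40. Nr1d2 was the 1 clock gene of 10 so separated, where 1.35% of tested genes were apart with the aged group higher and 3.66% in either direction. Its log2 fold change was 0.42 ± 0.16 (SE), and 0.31 without aged 50. Nr1d1 (REV-ERB alpha) had 19.4, 23.3, 32.7 and 22.5 FPM in the aged tumours, against 18.2, 17.1, 23.9 and 16.1 FPM in the young tumours. Aged 50 again stood highest, young 40 lay among the aged tumours, and the log2 fold change was 0.39 ± 0.18 (SE), and 0.24 without aged 50. Exons of Nr1d1 share 263 bases with Thra, a thyroid hormone receptor gene on the opposite strand, and the sources used here do not say whether counting used strand. Thra had 50.7, 57.9, 57.8 and 69.9 FPM in aged tumours and 59.3, 59.1, 63.4 and 68.7 FPM in young tumours, with a log2 fold change of -0.07 ± 0.13 (SE), and -0.19 without aged 51.

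Dbp varied more between tumours than the other 9. It had 3.59, 7.58, 12.6 and 0.960 FPM in aged 46, 47, 50 and 51, against 4.85, 4.51, 4.51 and 1.68 FPM in young 36, 37, 40 and 43. The lowest aged tumour and the lowest young tumour held 29 and 60 fragments, while the highest, aged 50, held 448, so the highest and the lowest FPM differed 13.1-fold. The SD of its log2 CPM over the 8 tumours was 1.11, larger than that of 93.5% of tested genes, whereas 7 of the other 9 clock genes had an SD of 0.30 to 0.41, Cry2 0.43 and Per1 0.69, and the median gene had 0.30. The aged group held both the highest and the lowest value, and the log2 fold change of 0.64 ± 0.66 (SE) was 0.05 without aged 50, 0.99 without aged 51 and 0.38 without young 43. Exons of Dbp share 539 of 2993 bases with Sphk2, a sphingosine kinase gene on the opposite strand. Sphk2 had 23.1, 24.5, 32.5 and 17.9 FPM in aged tumours and 27.8, 28.5, 29.2 and 27.5 FPM in young tumours (log2 fold change -0.20 ± 0.16, SE). Its log2 fold change was -0.34 without aged 50 and -0.10 without aged 51. Sphk2 was highest in aged 50 and lowest in aged 51, as Dbp was, and the part of shared reads in this was not tested.

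The aged tumours were more unlike each other in clock transcripts than the young tumours were. The SD of log2 CPM was larger in the aged group for 10 of 10 clock genes, where 71.9% of tested genes had the larger SD there. The median ratio of the aged SD to the young SD was 1.86 for the clock genes and 1.44 for all tested genes. The contrast was widest for Cry1 (0.43 in aged, 0.06 in young), Cry2 (0.50 in aged, 0.08 in young) and Per3 (0.44 in aged, 0.11 in young). It was narrowest for Nr1d1 (0.27 in aged, 0.23 in young) and Nr1d2 (0.24 in aged, 0.20 in young). The count was 8 of 10 without aged 50 or young 37 and 9 of 10 without young 36, with the REV-ERB genes as the exceptions, and 10 of 10 without any other single tumour. Without young 43 the ratio was 4.12 for the clock genes and 2.11 for all tested genes, and without aged 51 it was 1.43 and 1.19. No test was made on these SDs.

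**Figure D2:**
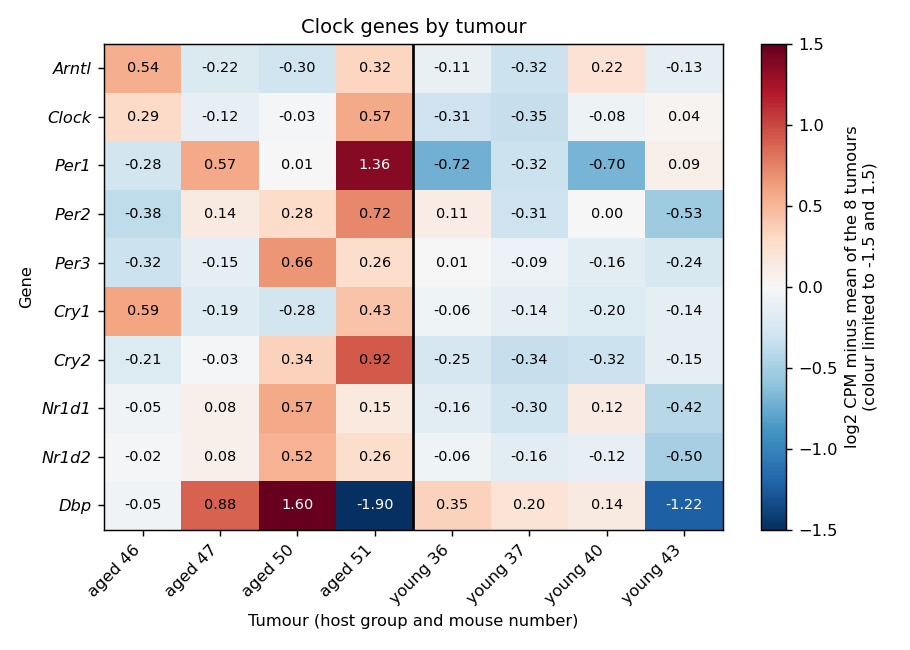
Log2 CPM of each clock gene (rows) in each tumour (columns) minus that gene's mean over the 8 tumours, aged hosts left of the line and young hosts right of it, with red above and blue below the mean. Aged 51 is above the mean for 9 genes and lowest of all for Dbp, while aged 46 is above it for Arntl, Clock and Cry1 only.

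The arms of the clock that Arntl and Dbp stand for were then set against each other across tumours, since the loop places them at opposite phases. On the log2 CPM scale Dbp minus Arntl was -2.73, -1.04, -0.24 and -4.36 in aged 46, 47, 50 and 51, and -1.68, -1.63, -2.22 and -3.23 in young 36, 37, 40 and 43. The mean difference, Dbp minus Arntl, was -2.09 ± 1.83 in aged tumours and -2.19 ± 0.74 in young ones (SD, n = 4 each), and the young range lay inside the aged one. The difference between these group means, aged minus young, was 0.09, but its sign turned on single tumours. It was 0.85 without aged 51, -0.52 without aged 50, -0.26 without aged 47 and -0.25 without young 43. No test was made on this difference, which is built from chosen genes.

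Across the 8 tumours Arntl and Dbp had a Pearson r of -0.49 (exact permutation p = 0.21, two-sided, adjusted p = 0.48 over the 45 pairs of clock genes). Spearman's rho was -0.64 (exact permutation p = 0.096, adjusted p = 0.40). Neither passed, and without aged 46 and aged 51, the tumours farthest from the median of Arntl, r was -0.33 (exact permutation p = 0.47). An r with Arntl at or below that of Dbp was found for 18.5% of the other 14574 tested genes. Groups of 4 are too few for an r of their own. In aged hosts the tumours with the least Arntl (aged 50 and aged 47) had the most Dbp, but aged 46 had more Arntl than aged 51 and also more Dbp. In young hosts, young 36, 37 and 40 had nearly equal Dbp (2.14 to 2.35 log2 CPM) over Arntl levels of 3.82 to 4.36, and young 43 had low Dbp (0.78) at a middle Arntl level (4.01). On deviations from the group means r was -0.56.

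**Figure D3:**
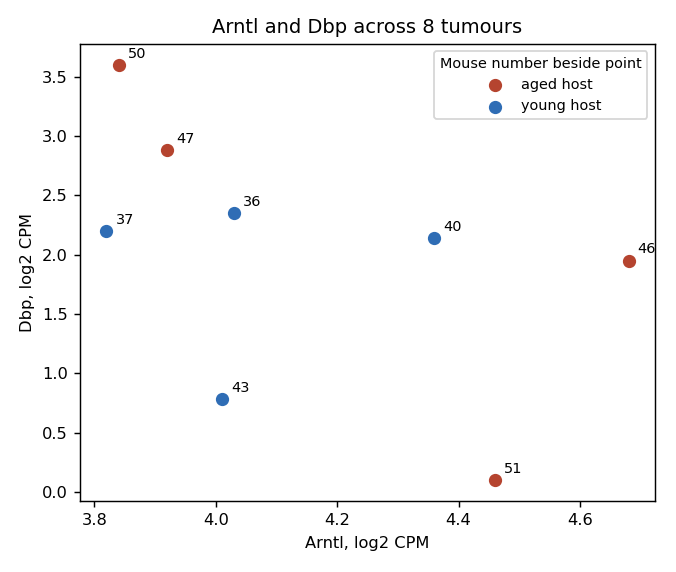
Log2 CPM of Dbp (vertical axis) against Arntl (horizontal axis) in the 8 tumours, coloured by host group and marked with the mouse number. Dbp is high in aged 50 and aged 47 at low Arntl, but young 43 and aged 51 are both low in Dbp at Arntl levels of 4.01 and 4.46, and the overall Pearson r of -0.49 did not pass.

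Of the 45 pairs of clock genes 35 had a positive Pearson r and 10 a negative one, and 6 of these 10 involved Dbp. The pairs reuse the same 10 genes, and no share was taken over pairs of all tested genes. Counts of pairs given here therefore describe only these 45. The most negative pair was Clock with Dbp (r = -0.63, rho = -0.64, exact permutation p = 0.095 and 0.096). Its r was -0.15 without aged 51 and aged 46, and -0.91 on deviations from the group means. An r with Dbp at or below that of Clock was found for 18.8% of the other tested genes. Unadjusted exact permutation p-values were under 0.05 for 10 pairs, all positive, and 0 pairs passed after adjustment over the 45 (smallest adjusted p = 0.12 for r and 0.17 for rho, 8 tumours, exact permutation). The closest pair was Nr1d1 with Nr1d2 (r = 0.92, rho = 0.86, exact permutation p = 0.0026 and 0.011), and r was 0.66 without aged 50 and young 43. Arntl with Cry1, a gene that REV-ERB proteins also repress in mouse tissue, had r = 0.84 and rho = 0.60 (exact permutation p = 0.011 and 0.13), and Arntl with Clock had r = 0.74 and rho = 0.67 (exact permutation p = 0.036 and 0.083). Both rest on aged 46 and aged 51, without which r was 0.06 for Arntl with Cry1 and 0.25 for Arntl with Clock. The part of tissue content in these r values was not tested. Among the other tested genes 0.473% had an r with Arntl at least as high as Cry1 and 3.02% at least as high as Clock.

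Per1 with Cry2 had r = 0.85 (exact permutation p = 0.015, and 0.61 as r without aged 51 and aged 47), Per2 with Cry2 r = 0.81 (exact permutation p = 0.011, and 0.67 as r without aged 51 and young 43) and Per3 with Nr1d2 r = 0.82 (exact permutation p = 0.01, and 0.22 as r without aged 50 and aged 51). All 3 have an adjusted p of 0.13 by exact permutation. With the other genes that BMAL1 and CLOCK drive, Dbp had no r that passed. Its r was 0.46 with Nr1d1, 0.41 with Nr1d2, 0.29 with Per3 and -0.05 with Per2. With Cry2 it was -0.37, with Per1 -0.48 and with Cry1 -0.54. These r values had exact permutation p-values of 0.14 to 0.91. Among the other tested genes 27.2% had an r with Dbp at least as high as Nr1d1, and 23.5% one at or below that of Cry1. Several signs turned on single tumours. Without aged 50 and young 43, r with Dbp was -0.38 for Nr1d1 and -0.68 for Nr1d2. It was 0.81 for Per2 without aged 51 and young 43, and 0.09 for Cry2 without aged 51 and aged 50. Per3 (0.48), Per1 (-0.11) and Cry1 (-0.53) kept their sign without the tumours farthest from their own medians. In aged 51 Clock, Per1, Per2 and Cry2 were at their highest of the 8 tumours while Dbp was at its lowest. In aged 50 Dbp, Nr1d1, Nr1d2 and Per3 were at their highest.

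The genes with patterns most like those of Dbp and Arntl were named by Pearson r of log2 CPM over the 8 tumours. They were taken among genes with a mean log2 CPM of at least 0, leaving out predicted gene models and the clock genes themselves. Nearest to Dbp was Spint1, a serine protease inhibitor of epithelial surfaces (r = 0.982), with 10.9, 26.8, 35.4 and 2.78 FPM in aged 46, 47, 50 and 51 and 15.3, 17.5, 17.9 and 6.69 FPM in young 36, 37, 40 and 43. Tjp3, a tight junction protein (0.972), Clec7a, the beta-glucan receptor dectin-1 of myeloid cells (0.969), Nudt18 (0.968) and Endog, a mitochondrial endonuclease (0.967), came next. Running opposite to Dbp were Apbb2 (-0.991), the chromatin remodelling gene Baz1b (-0.984), the centrosomal gene Cep83 (-0.983), Trrap, a scaffold of histone acetyltransferase complexes (-0.982), and Kbtbd2 (-0.981). Nearest to Arntl were Mapk6, an atypical MAP kinase (r = 0.936), Iqgap1, a cytoskeletal scaffold (0.933), Antxr2, an anthrax toxin receptor (0.925), Desi2 (0.917) and Mex3c (0.912). Opposite to Arntl were Acox3, a peroxisomal oxidase (-0.958), B4galnt1 (-0.949), Txnrd2, a mitochondrial thioredoxin reductase (-0.947), Ccdc28a (-0.942) and Stard3 (-0.930). These are the extremes of many genes over only 8 tumours, and they carry no test.

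The 6 epithelial markers are given beside Dbp. They summed to 299.2, 397.3, 652.6 and 139.5 FPM in aged 46, 47, 50 and 51 and to 369.1, 445.9, 188.2 and 63.3 FPM in young 36, 37, 40 and 43. Aged 50, highest in Dbp, was highest in the sum, and aged 51 and young 43, lowest in Dbp, were its lowest tumours. Krt18, Epcam, Cdh1 and Cldn4 were highest in aged 50, but Krt19 was highest in aged 46 (169.1 FPM) and Krt8 in young 36 (124.1 FPM). Young 40 had a low sum at a middle Dbp level. The 6 tested T cell markers also summed low in aged 51 (13.1 FPM) and young 43 (12.99 FPM), but as low in aged 46 (11.8 FPM), where Dbp stood at 3.59 FPM. Macrophage markers summed to 2222.0 FPM in aged 51 and 2304.9 FPM in young 43, but were lowest in aged 46 (1507.2 FPM). The other tumours had 2937.6 to 3298.4 FPM, and the marker Mrc1 was highest in aged 51 (271.4 FPM). The part of epithelial, T cell or macrophage content in the Dbp values, and of host epithelium in the epithelial sum, was not tested.

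Glucocorticoid-induced genes stood beside Per1. The glucocorticoid receptor gene Nr3c1 and 11 genes that the receptor can induce summed to 809.3, 921.7, 965.3 and 1499.6 FPM in aged 46, 47, 50 and 51, against 797.6, 769.5, 757.7 and 606.9 FPM in young 36, 37, 40 and 43. Aged 51, highest in Per1, was highest in the sum as well, but young 43, which had more Per1 than 5 other tumours, was lowest in it. Of the 12 genes 10 had positive log2 fold changes, where 55.3% of tested genes did (median 0.76, against 0.03 over all tested genes). After adjustment 0 passed edgeR's test. At an unadjusted p of 0.05 by the same test 4 were higher in aged tumours and 0 lower (2.34% and 2.66% of tested genes). The smallest p-values were those of the sulfotransferase gene Sult1a1 (log2 fold change 2.47 ± 0.63, SE) and of Klf9, a transcription factor that both glucocorticoids and the clock drive (1.03 ± 0.30, SE, and 0.67 without aged 51). Klf9 had 29.7, 30.6, 33.1 and 63.1 FPM in the aged tumours, against 18.7, 15.4, 27.5 and 16.5 FPM in the young tumours, with no overlap between the groups. Among the 12, 2 were so separated with the aged group higher, where 1.35% of tested genes were, and 3.66% were apart in either direction. Nr3c1 itself had -0.15 ± 0.12 (SE).

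The sum of 6 adipocyte markers was also highest in aged 51 (451.6 FPM, against 30.9 to 171.8 FPM in the other 7 tumours). Fabp4, a fatty acid binding protein gene, gave 397.7 FPM of it. Adipoq (17.04 FPM), Cidec (13.1 FPM) and Pck1 (19.79 FPM) were also highest in aged 51. Plin1 was highest in young 43 (3.526 FPM, against 3.507 FPM in aged 51) and Lep in aged 50 (0.6172 FPM). Of 15 immediate early genes, which like Per1 can answer cAMP signals, 13 had negative log2 fold changes, where 55.3% of tested genes had positive ones. The median of the 15 was -0.38, against 0.03 over all tested genes, and 0 passed after adjustment, where 0.0% of tested genes did. At an unadjusted edgeR p of 0.05, 0 were higher and 1 was lower in aged tumours (2.34% and 2.66% of tested genes). The groups were apart for 1, with the aged group lower (2.31% of tested genes). The smallest p-values of that list were those of Nr4a2, an orphan nuclear receptor gene (-0.64 ± 0.18, SE), and the AP-1 gene Junb (-0.62 ± 0.28, SE). The part of adipocyte transcripts, glucocorticoid-induced genes and immediate early genes in the Per1 values was not tested.

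**Figure D4:**
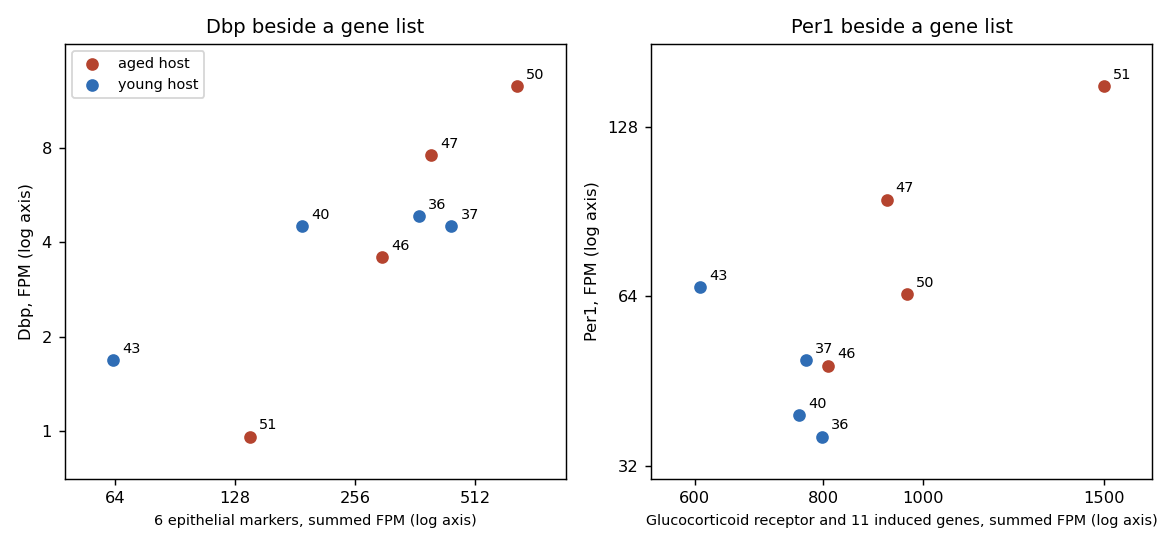
Left, FPM of Dbp against the summed FPM of 6 epithelial markers, and right, FPM of Per1 against the summed FPM of Nr3c1 and 11 glucocorticoid-induced genes, in each tumour on log axes, with mouse numbers beside the points. Aged 50 is at the top right on the left side (12.6 FPM of Dbp at 652.6 FPM), and aged 51 at the top right on the right side (151 FPM of Per1 at 1499.6 FPM).

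Beyond the 10 genes, of 30 further clock-linked genes 19 had positive and 11 negative log2 fold changes, where 55.3% of tested genes had a positive one. The median of the 30 was 0.07, against 0.03 over all tested genes. After adjustment 0 passed edgeR's test (adjusted p of at least 0.923 for each). At an unadjusted p of 0.05, 1 was higher (Tef) and 3 were lower in aged tumours (Bhlhe40, Bhlhe41 and Arntl2), where 2.34% of tested genes were higher and 2.66% lower. The same 3 genes had no overlap between the groups, where 2.31% of tested genes were apart with the aged group lower.

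Bhlhe40 (DEC1), a repressor that competes for E-boxes, had 94.0, 90.0, 91.0 and 56.0 FPM in aged 46, 47, 50 and 51, against 126.1, 136.7, 151.2 and 103.7 FPM in young 36, 37, 40 and 43. Its log2 fold change was -0.64 ± 0.18 (SE), and every aged tumour lay below every young one. Its relative Bhlhe41 (DEC2) had 10.7, 17.2, 19.8 and 9.0 FPM in the aged tumours, against 26.97, 22.1, 27.1 and 20.9 FPM in the young tumours. It too was lower in all aged tumours, with a log2 fold change of -0.78 ± 0.23 (SE). Arntl2, a paralogue of Arntl, had 5.05, 6.95, 4.74 and 3.67 FPM in the aged tumours, against 6.52, 7.13, 7.52 and 8.45 FPM in the young tumours. Its log2 fold change was -0.53 ± 0.23 (SE), opposite in sign to that of Arntl, with aged 47 above young 36 in FPM and below it on the log2 CPM scale.

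The D-box binding relatives of Dbp differed from each other in sign. Tef had 40.4, 54.3, 76.5 and 76.2 FPM in aged 46, 47, 50 and 51, against 41.2, 42.7, 36.9 and 26.6 FPM in young 36, 37, 40 and 43. It was high in aged 50 and aged 51, where Dbp was highest and lowest, and its log2 fold change was 0.75 ± 0.23 (SE). Hlf had 16.6, 34.6, 19.4 and 35.9 FPM in the aged tumours, against 35.9, 34.5, 33.1 and 49.7 FPM in the young tumours. Aged 46 and aged 50 were low and aged 47 and aged 51 lay at the young level, with a log2 fold change of -0.51 ± 0.27 (SE). Fbxl21, an F-box gene linked to CRY turnover, was low in all tumours (0.481 to 1.30 FPM) and had 0.69 ± 0.35 (SE). Nfil3, a repressor at D-boxes, had -0.02 ± 0.22 (SE), and Npas2, which can stand in for Clock, 0.42 ± 0.50 (SE).

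**Figure D5:**
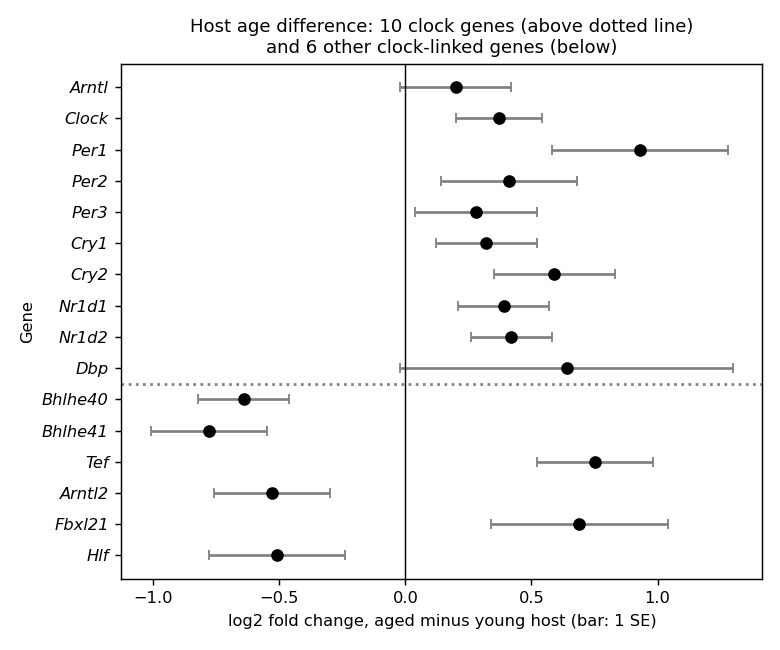
Log2 fold change, aged minus young hosts (horizontal axis, bars 1 SE), of the 10 clock genes above the dotted line and of the 6 further clock-linked genes with the smallest p below it. All 10 lie right of 0, from 0.20 for Arntl to 0.93 for Per1, while Bhlhe40, Bhlhe41, Arntl2 and Hlf lie left of it, and no gene shown passed after adjustment.

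The cold-inducible RNA-binding proteins, which in mouse fibroblasts bind clock transcripts, were both higher in aged tumours at an unadjusted p of 0.05, where 2.34% of tested genes were higher and 4.99% passed in either direction. Cirbp had 26.2, 49.4, 65.2 and 44.5 FPM in aged 46, 47, 50 and 51, against 29.3, 30.2, 27.5 and 21.5 FPM in young 36, 37, 40 and 43. Aged 46 lay within the young range and the other 3 aged tumours above it, with a log2 fold change of 0.77 ± 0.24 (SE). Rbm3 had 514.6 to 693.6 FPM in aged and 347.9 to 398.7 FPM in young tumours, and did not pass edgeR's test after adjustment (adjusted p = 0.738, log2 fold change 0.68 ± 0.13, SE).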

How the data were processed

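RNA of 8 tumours was sequenced as 50 bp paired ends from 1 µg of total RNA each, per the labels' protocols. TopHat2 2.0.12, Picard 2.7.1 and bcl2fastq, with builds GRCm38 and mm10, come from the submitters' processing notes. The sources used here do not name the counting program or say whether it used strand. Per the file headers, the authors deposited a fragment count, an FPM value (equal to CPM) and an FPKM value for each gene.

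Counts were filtered with filterByExpr (minimum count 10, minimum total 15), scaled with TMM factors (0.948 to 1.04) and fitted with edgeR 4.0.16 (robust quasi-likelihood, host age as the only term) over all 14575 genes kept. Benjamini-Hochberg adjustment ran over all of these, with 0.05 as threshold. The SE is the log2 fold change over the square root of F. Log2 CPM used a prior count of 2. Correlations were tested by exact permutation (40320 pairings). At depths of 27054498 to 35729488 fragments, 3 fragments are 0.084 to 0.111 CPM, which covers counting error only. No library was a copy of another (lowest chi-square per degree of freedom 36.4). DESeq2 1.42.0, limma 3.58.1 (voom with sample weights), other scalings and filters, and left-out tumours were the alternatives. The steps were tested on simulated data. Exon overlaps come from GENCODE vM21 (GRCm38).

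The 10 genes and all lists were chosen with earlier results of these data known. Named by rule were the 10 genes, the 6 of 30 further clock-linked genes and the 2 of each other list with the smallest p, the 5 genes at each end of likeness to Dbp and Arntl, and genes whose exons overlap theirs. Nfil3, Npas2, Nr3c1 and the marker genes were named after their values were seen.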

Additional observations from a re-analysis of the deposited data

Results flagged for a closer look

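In 5 of the 90 groups of 4 tumours examined (45 values in 2 host groups), 1 tumour lay far from the other 3 on the log2 CPM scale by Dixon's 95% critical value. Chance alone gives about 1 in 20 such groups. Young 43 stood apart in 3 of them: Dbp at 0.78 (2.14 to 2.35 in the other young tumours), Spint1, the gene most like Dbp, at 2.74 (4.00 to 4.14), and Apbb2, the gene most opposite to Dbp, at 6.04 (5.69 to 5.73). Spint1 and Apbb2 were named for following Dbp, so these 3 are not separate. Aged 51 stood apart in the other 2, with Klf9 at 6.05 (4.89 to 4.99 in the other aged tumours) and Thra at 6.19 (5.74 to 5.80).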

How the results depend on the processing

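No clock gene was called in any of the 18 alternatives. Over all tested genes DESeq2 called 43 and limma voom 9, while every other alternative called 0, as the main edgeR fit did. The median log2 fold change of the 10 genes (0.40) stayed positive, at 0.28 to 0.48 with 1 tumour left out, and was 0.25 by limma voom and 0.25 excluding aged 50, aged 51 and young 36. By limma voom Arntl (-0.10) and Cry1 (-0.01) changed sign, and excluding aged 50, aged 51 and young 36 Per3 did (-0.07). The cause was not tested. The Arntl and Dbp correlation stayed negative and did not pass in 16 alternatives (r -0.66 to -0.32, exact permutation p from 0.094 to 0.48). The difference of Dbp minus Arntl between host groups (0.09) ran from -0.52 to 0.85 with 1 tumour left out. Excluding aged 51 and young 43, the tumours lowest in Dbp, was chosen after seeing the data. Of the other named genes, Rbm3 passed by DESeq2 and limma voom and Sult1a1 by DESeq2. No paired analysis was made because the labels name no pairing of aged with young hosts.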
